A study of Mus musculus with 12 samples.

Results

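The expression of 8 genes of sterol metabolism was followed in cells labelled as glomerular endothelial cells (GEC), which line the capillaries of the kidney's filtering units. In the dimtdT libraries the summed leukocyte markers, given below, exceeded the summed endothelial markers. The genes were chosen by name: the cholesterol synthesis enzymes Hmgcs1 and Sqle, the sterol regulatory element binding protein (SREBP) genes Srebf1 and Srebf2 with their regulator Insig1, the liver X receptor (LXR) gene Nr1h2, and the cholesterol exporters Abca1 and Abcg1. Each of the 8 was listed in both deposited count tables, out of 17811 genes in the table of the dimtdT cells and 17521 in that of the brighttdT cells. RNA was sequenced from 3 wild type (WT) mice and 3 Alport syndrome (AS) mice, labelled Col4a5 -/-, which lack the alpha chain of type IV collagen encoded by Col4a5. All mice were 4 months old, on the C57BL/6 strain, and carried the TekCre reporter, in which Cre driven by the Tek promoter switches on the red protein tdTomato (tdT). Cells from digested glomeruli of each mouse were sorted by brightness, so that each mouse gave 1 dimtdT and 1 brighttdT library, and 12 libraries form the 4 groups WT-dimtdT, AS-dimtdT, WT-brighttdT and AS-brighttdT of 3 each.

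Cells hold their cholesterol within narrow limits by matching synthesis to export. When sterols in the endoplasmic reticulum are low, SREBP proteins are released from Insig proteins, move to the Golgi, are cut and then switch on the genes of cholesterol synthesis and uptake. When oxysterols accumulate, LXR switches on the genes that export cholesterol to lipoproteins. In endothelial cells and in macrophages, Abca1 and Abcg1 are the best known exporters of this pathway.

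The libraries held 11440169 to 15074909 counts on genes. Col4a5, the gene mutated in AS, had 69.0, 37.8 and 74.6 counts per 1000000 (CPM) in the WT-dimtdT and 3.61, 1.99 and 1.36 CPM in the AS-dimtdT libraries. In the brighttdT libraries it was low in both genotypes, at 4.77 to 10.05 CPM in WT and 3.05 to 6.64 CPM in AS. Tek had 10.5 to 20.1 CPM in WT-dimtdT and 2.31 to 3.04 CPM in AS-dimtdT, against 136 to 264 CPM in WT-brighttdT and 241 to 256 CPM in AS-brighttdT.

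The cell type label was checked against marker genes, and leukocyte markers were high in the dimtdT libraries. The summed level of 10 endothelial markers, among them Pecam1, Cdh5 and Kdr, was 673 to 1293 CPM in WT-dimtdT and 217 to 299 CPM in AS-dimtdT, against 9988 to 15208 CPM in WT-brighttdT and 14552 to 17349 CPM in AS-brighttdT. Leukocyte markers, such as Ptprc and Laptm5, summed to 7216 to 11889 CPM in WT-dimtdT and 11924 to 12296 CPM in AS-dimtdT, but to 68.0 to 149 CPM in the brighttdT libraries. Macrophage markers summed to 2689 to 4634 CPM in WT-dimtdT, 6380 to 8492 CPM in AS-dimtdT and 56.5 to 109 CPM in brighttdT. Leukocyte markers therefore outweighed endothelial markers in every dimtdT library, and the reverse held in every brighttdT library. Coro1a alone had a mean of 5697 CPM in WT-dimtdT and 7298 CPM in AS-dimtdT. Sums over lists of different genes do not measure the share of RNA from each cell type. Of the 10 leukocyte markers, Cd3e, Cd3g and Nkg7 were not listed in the table of the brighttdT cells. As background, Tek-driven Cre is also known to be active in blood cell lineages. In RNA of a sorted fraction, fewer cells of a type and less RNA per cell cannot be told apart.

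Proximal tubule markers set apart 1 mouse of each genotype, replicate 1 in WT and replicate 2 in AS. Their sum over 10 genes was 5909 CPM in its dimtdT library, against 1381 and 1525 CPM in the other WT-dimtdT libraries, and 2590 CPM in its brighttdT library, against 488 and 731 CPM. In AS replicate 2 it was 466 CPM in dimtdT, against 41.9 and 28.9 CPM, and 588 CPM in brighttdT, against 160 and 164 CPM. Podocyte markers summed to 479 to 1002 CPM in WT-dimtdT and 196 to 240 CPM in AS-dimtdT, where 3 of 5 were lower in AS at an adjusted p under 0.05 (edgeR). In the brighttdT libraries they summed to 906 to 1099 CPM in WT and 1246 to 1401 CPM in AS, with 0 of 5 past an adjusted p and 4 higher in AS at an unadjusted one, which 21.8% of all genes reached. In the dimtdT cells, where 8.63% of all genes passed, 5 of 10 proximal tubule and 6 of 9 endothelial markers were also lower in AS. There 3 of 8 macrophage markers were higher, while 0 of 10 leukocyte markers passed (edgeR). At an unadjusted p under 0.05 there were 3 of 10 leukocyte markers, where 26.3% of all genes reached it. The part of podocyte and endothelial markers in the comparisons of AS with WT was not tested. Mesangial and mural markers summed to 59.1 to 208 CPM in dimtdT and 401 to 881 CPM in brighttdT.

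**Figure D1:**
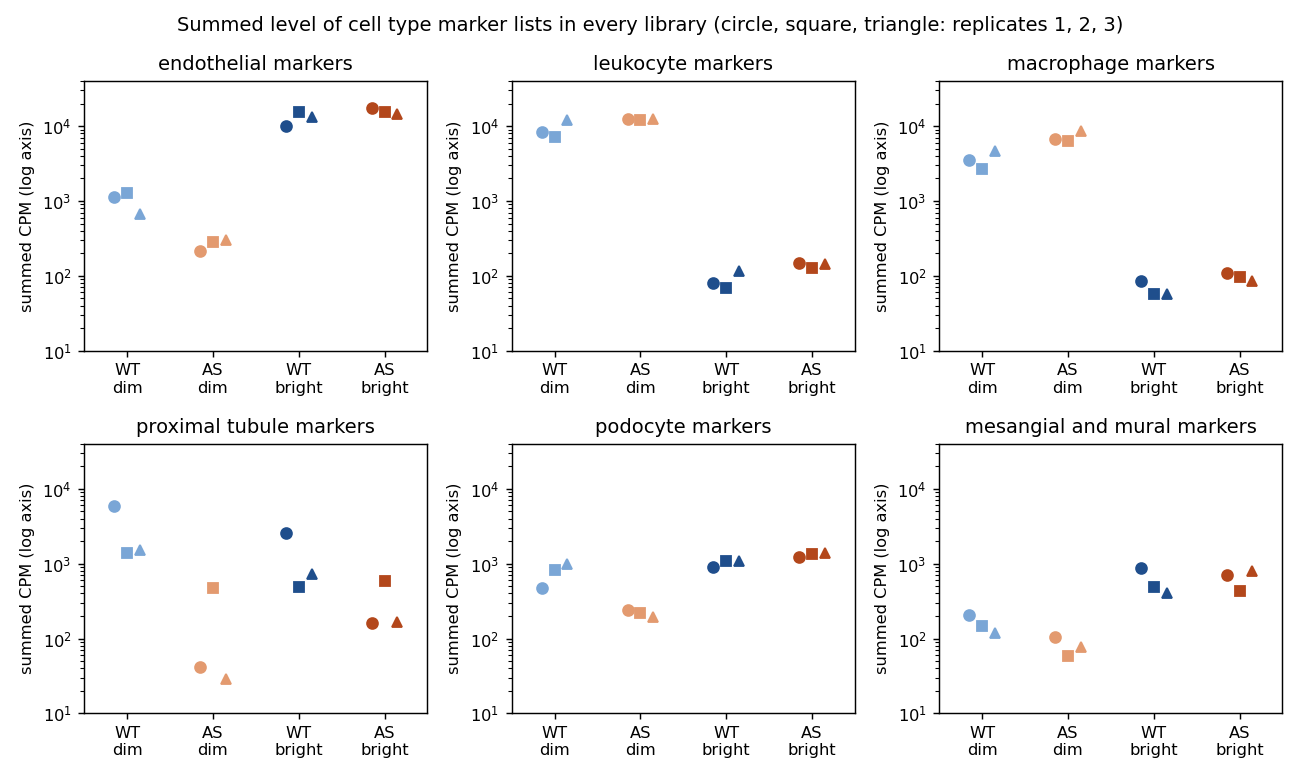
Summed CPM (log axis) of 6 marker lists in each of the 12 libraries, by group, with 1 symbol per replicate. Leukocyte markers lie at 7216 CPM or above in the dimtdT libraries and at 149 CPM or below in the brighttdT libraries, while endothelial markers are lower in every dimtdT library than in any brighttdT library.

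Per kilobase of exon, Srebf2 and Hmgcs1 had the highest levels of the 8 genes in the WT-dimtdT cells, with 56.4 ± 4.15 (SD, n = 3) and 49.8 ± 20.8 (SD, n = 3) CPM per kilobase. These were followed by Insig1 with 17.9 ± 2.18 and Abcg1 with 17.7 ± 4.07 CPM per kilobase (SD, n = 3 each), which did not differ beyond their spread. Sqle had 10.9 ± 2.43, Abca1 9.34 ± 1.90 and Nr1h2 4.32 ± 1.42 CPM per kilobase (SD, n = 3 each), and Srebf1 was last with 0.757 ± 0.123 CPM per kilobase (SD, n = 3). In the WT-brighttdT cells Srebf2 was again first, at 34.9 ± 7.03 CPM per kilobase (SD, n = 3), and Hmgcs1 next, at 25.2 ± 2.56 CPM per kilobase (SD, n = 3). There the lowest were Abca1 with 3.02 ± 0.796 and Srebf1 with 2.58 ± 2.39 CPM per kilobase (SD, n = 3 each), which did not differ beyond their spread. In the AS-brighttdT cells Nr1h2 reached 11.4 ± 1.26 CPM per kilobase (SD, n = 3), above Sqle with 6.84 ± 1.60 CPM per kilobase (SD, n = 3).

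**Figure D2:**
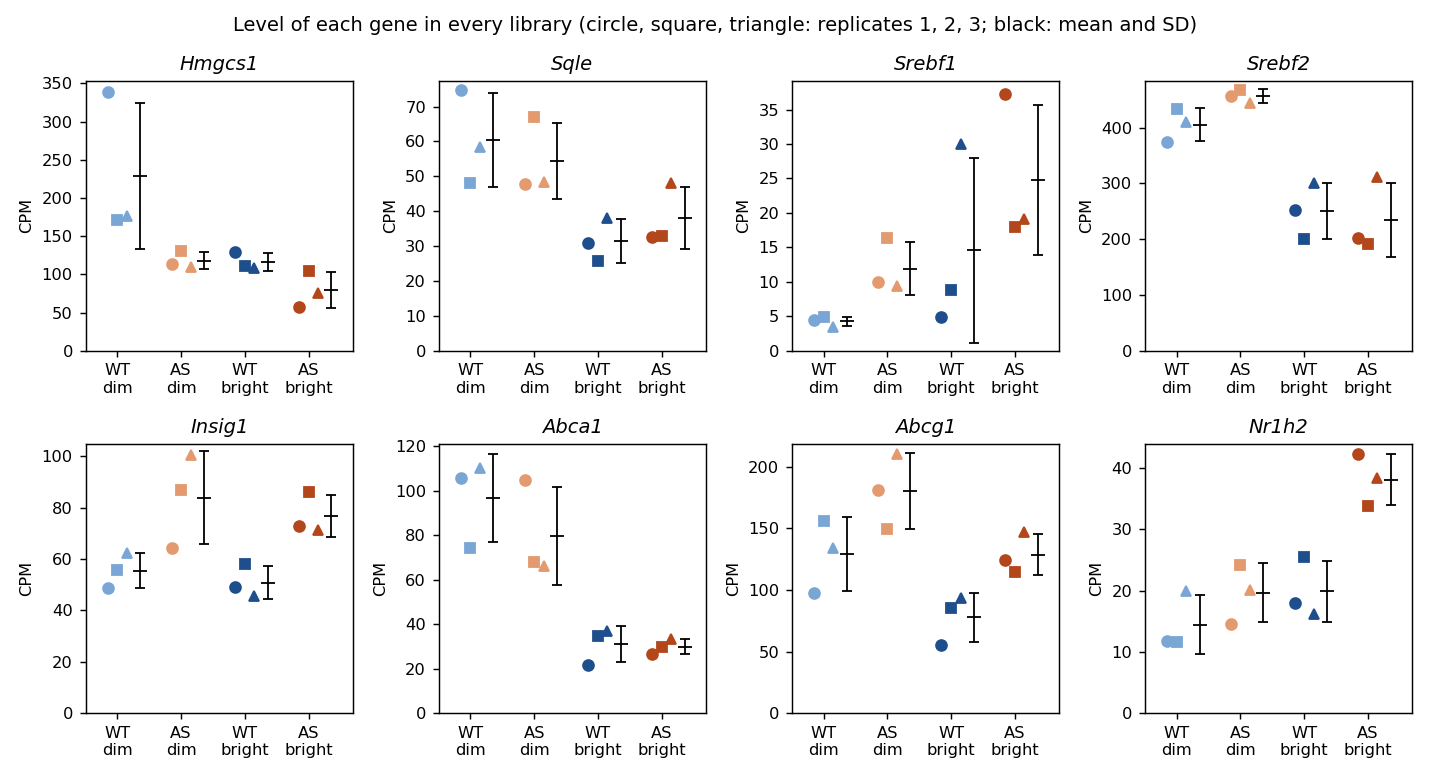
CPM of the 8 genes in each of the 12 libraries (y axes start at 0), grouped by genotype and subpopulation, with the mean and SD of each group of 3 in black. Abca1 and Srebf2 are lower in every brighttdT than in any dimtdT library, and Hmgcs1 is highest in WT-dimtdT replicate 1, at 339 CPM.

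Between the subpopulations, Abca1 was lower in the brighttdT than in the dimtdT cells of both genotypes, and in AS Srebf2 was lower while Srebf1 and Nr1h2 were higher. Each comparison was tested with edgeR's quasi-likelihood test on all genes, and adjusted p-values are by Benjamini and Hochberg over all genes tested. Of the 8 genes, 1 passed an adjusted p of 0.05 for WT-brighttdT over WT-dimtdT, where 25.3% of all genes tested passed, and 4 passed for AS-brighttdT over AS-dimtdT, where 55.1% passed. In this test the shares of the 8 that passed were not above those of all genes. With the mouse as a block, which uses that both libraries of a mouse carry its number, Hmgcs1 and Sqle also passed in WT, for 3 of 8, where 30.1% of all genes passed. Hmgcs1 also passed in AS with the block, for 5 of 8, where 53.3% of all genes passed. The shares of the 8 were then above those of all genes, and these differences were not tested. The median log2 fold change of the 8 was -0.62 in WT and -0.48 in AS, against -0.04 and 0.02 over all genes. Libraries of both subpopulations did not overlap for 6 of 8 genes in WT, where this held for 42.2% of all genes, and for 6 of 8 in AS, where it held for 62.4%.

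Between the genotypes, 0 of 8 genes passed in either subpopulation. For AS-dimtdT over WT-dimtdT 8.63% of all genes passed, and for AS-brighttdT over WT-brighttdT 0.452% did. At an unadjusted p under 0.05 there were 3 of the 8 in the dimtdT cells, where 26.3% of all genes reached it, and 4 in the brighttdT cells, where 21.8% did. DESeq2 called 2 of 8 in the dimtdT cells, Srebf1 (adjusted p = 0.0117 from DESeq2) and Hmgcs1 (adjusted p = 0.0252 from DESeq2), where it called 15.2% of all genes. In the brighttdT cells it called 1 of 8, Nr1h2 (adjusted p = 0.0363 from DESeq2), and 7.79% of all genes. The median log2 fold change of the 8 was 0.29 in the dimtdT and 0.37 in the brighttdT cells, against -0.02 and -0.03 over all genes. The libraries of WT and AS did not overlap for 4 of the 8 in each subpopulation, where 31.2% of all genes in the dimtdT and 24.7% in the brighttdT cells showed no overlap. With 3 libraries against 3, exact permutation cannot give a two-sided p below 0.1.

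**Figure D3:**
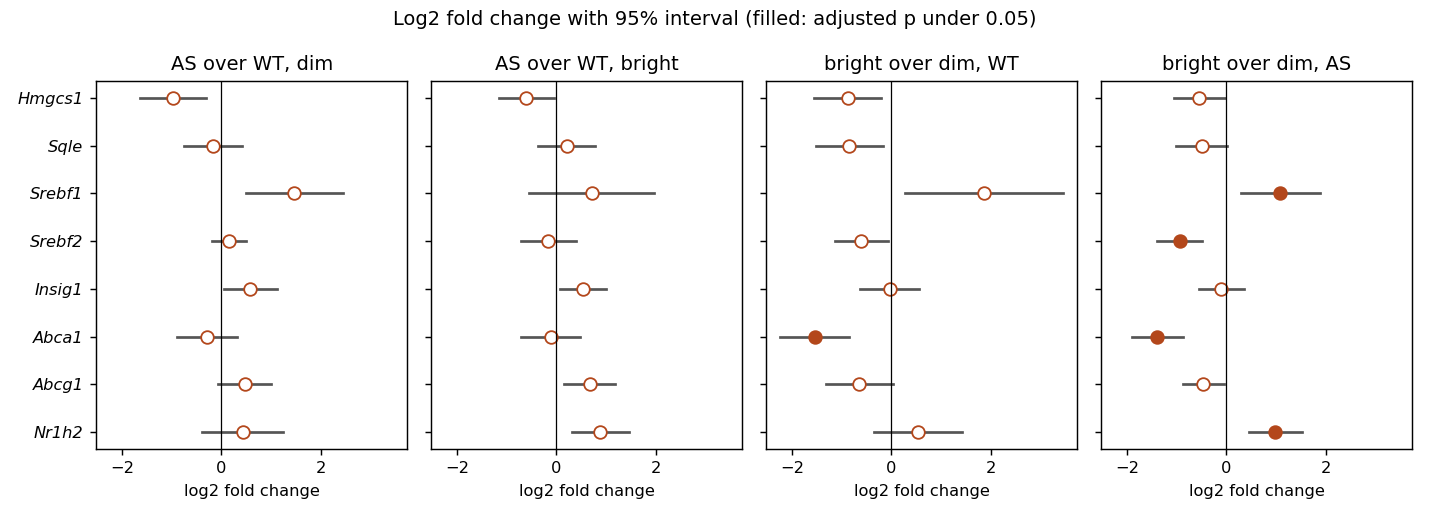
Log2 fold change of each gene (x axis) with its 95% interval in 4 comparisons, where filled points have an adjusted p under 0.05 by edgeR's quasi-likelihood test. The filled points are Abca1 in WT, at -1.54, and Abca1, Srebf2, Srebf1 and Nr1h2 in AS, at -1.39, -0.94, 1.08 and 0.98.

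Hmgcs1 encodes the cytosolic HMG-CoA synthase, which makes the substrate of HMG-CoA reductase early in cholesterol synthesis. The gene lies on the plus strand at chr13:119690379-119708260 of GRCm38, is protein-coding, and is overlapped on the opposite strand by the noncoding Gm48342, which is in neither table. Its promoter is shown because, of the 6 genes with a promoter in the RefSeq table used, only Hmgcs1 held the letters TCACNCCAC of a sterol regulatory element, the site SREBP proteins bind. The 250 bases before the RefSeq start (chr13:119690101-119690350, plus strand, GRCm38.p6) read as follows, with matches to 4 motifs in capitals: the sterol element TCACNCCAC, the NF-Y box CCAAT (or ATTGG), the Sp1 box GGGCGG (or CCGCCC) and the nuclear receptor hexamer AGGTCA (or TGACCT), each searched on both strands and without overlap among the matches here.
Hmgcs1: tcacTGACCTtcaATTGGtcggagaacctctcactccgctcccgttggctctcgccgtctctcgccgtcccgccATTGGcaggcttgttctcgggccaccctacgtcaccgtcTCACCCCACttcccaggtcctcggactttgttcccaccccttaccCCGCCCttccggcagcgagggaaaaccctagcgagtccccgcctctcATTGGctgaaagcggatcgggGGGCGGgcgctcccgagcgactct
The match TCACCCCAC begins at base 114 of the window, and its last base is 129 bases before the start. Such a match, on either strand, is in 1.05% of the 32851 promoter windows of this length, an NF-Y box in 33.8%, an Sp1 box in 32.7% and a receptor hexamer in 14% of them. Sqle and Abcg1 had no entry in the table.

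The WT-dimtdT libraries had 339, 171 and 177 CPM of Hmgcs1 and the AS-dimtdT libraries 114, 130 and 109 CPM. The WT-brighttdT libraries had 129, 110 and 108 CPM and the AS-brighttdT libraries 57.7, 105 and 75.7 CPM. WT lay above AS in both subpopulations with no overlap, replicate 1 stood far above the other WT-dimtdT libraries, and AS-dimtdT and WT-brighttdT overlapped. For AS-dimtdT over WT-dimtdT the log2 fold change was -0.97 (standard error 0.29, 95% interval -1.64 to -0.30, adjusted p = 0.0755, edgeR), which was -0.56 without WT-dimtdT replicate 1. That library was also the highest in proximal tubule markers, and with the mean of these markers as a covariate the log2 fold change was -0.15 (adjusted p = 0.998, edgeR). All 10 markers were lower in every AS-dimtdT than in any WT-dimtdT library, and in that fit 1 of 15690 genes passed. Tubule RNA and genotype thus cannot be told apart in the dimtdT cells, for Hmgcs1 or for the genes below given with this covariate. In the brighttdT cells the log2 fold change of Hmgcs1 was -0.60 (standard error 0.25, 95% interval -1.16 to -0.05, adjusted p = 0.195, edgeR), and -0.11 with the proximal tubule covariate (adjusted p = 0.963, edgeR). With the mean of the leukocyte markers as a covariate it was -0.45 in the dimtdT and -0.80 in the brighttdT cells (adjusted p = 0.730 and 0.402, edgeR). BrighttdT over dimtdT was -0.88 in WT (standard error 0.30, adjusted p = 0.0600, edgeR) and -0.55 in AS (standard error 0.23, adjusted p = 0.0661, edgeR). With the mouse as a block these were -0.82 (adjusted p = 0.0324, edgeR) and -0.57 (adjusted p = 0.0407, edgeR), and without WT-dimtdT replicate 1 the difference in WT was -0.51. Without AS-brighttdT replicate 2, the highest of its group in Hmgcs1 and in proximal tubule markers, the difference in AS was -0.84 and passed (adjusted p = 0.00530, edgeR).

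Sqle encodes squalene epoxidase, a rate-limiting enzyme late in cholesterol synthesis, and lies on the plus strand at chr15:59315077-59331192 of GRCm38, free of overlapping genes. It had 74.8, 48.2 and 58.4 CPM in WT-dimtdT and 47.7, 66.9 and 48.4 CPM in AS-dimtdT. In the brighttdT libraries it had 30.8, 25.6 and 38.1 CPM in WT and 32.7, 32.9 and 48.2 CPM in AS. The genotypes overlapped in both subpopulations, and only in WT did the dimtdT libraries all lie above the brighttdT libraries. BrighttdT over dimtdT was -0.84 in WT (standard error 0.30, adjusted p = 0.0667, edgeR), which passed with the mouse as a block (adjusted p = 0.0486, edgeR), and -0.50 in AS (standard error 0.23, adjusted p = 0.0933, edgeR). Without AS-brighttdT replicate 3 the latter was -0.72 and passed (adjusted p = 0.0368, edgeR). For AS over WT, the 95% interval of the log2 fold change ran from -0.76 to 0.42 in the dimtdT and from -0.38 to 0.79 in the brighttdT cells. The estimate in the dimtdT cells was -0.17, and 0.56 with the proximal tubule covariate (adjusted p = 0.944, edgeR).

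Srebf1 encodes SREBP-1, whose isoforms drive fatty acid synthesis and, in part, cholesterol synthesis. It lies on the minus strand at chr11:60199089-60222581 of GRCm38 and overlaps 109 bases of Rai1 on the opposite strand. Counts on the gene do not separate the SREBP-1 isoforms, which start at different promoters. WT-dimtdT libraries had 4.47, 4.82 and 3.49 CPM, from 50, 56 and 41 counts, and AS-dimtdT libraries 9.98, 16.3 and 9.42 CPM, from 141, 197 and 118 counts. WT-brighttdT libraries had 4.90, 8.78 and 29.96 CPM, from 77, 127 and 463 counts, and AS-brighttdT libraries 37.3, 18.02 and 19.1 CPM, from 527, 282 and 267 counts. All WT-dimtdT libraries were below all others, and WT-brighttdT spanned the widest range, with replicate 3 above 2 of the 3 AS-brighttdT libraries.

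Srebf1 rose 2.12-fold from AS-dimtdT to AS-brighttdT (log2 fold change 1.08, standard error 0.36, adjusted p = 0.0255, edgeR). The call was lost without AS-dimtdT replicate 1 (adjusted p = 0.0855, edgeR), without AS-dimtdT replicate 3 (adjusted p = 0.0932, edgeR) and without AS-brighttdT replicate 1, where the log2 fold change was 0.68 (adjusted p = 0.121, edgeR), and in the fit of all 12 libraries (adjusted p = 0.134, edgeR). In WT brighttdT over dimtdT was 1.86 (standard error 0.71, adjusted p = 0.0863, edgeR). The WT value rested on replicate 3, since it was 0.78 without that brighttdT library, and it passed at 2.28 without WT-brighttdT replicate 1 (adjusted p = 0.0354, edgeR). For AS over WT the log2 fold change in the dimtdT cells was 1.47 (standard error 0.42, 95% interval 0.49 to 2.44, adjusted p = 0.0686, edgeR). It was 2.30 with the proximal tubule covariate (standard error 0.70, adjusted p = 0.721, edgeR), 1.37 with the leukocyte covariate (standard error 0.72, adjusted p = 0.438, edgeR), and 1.13 to 1.61 with a library left out. In the same libraries macrophage markers summed to 2689 to 4634 CPM in WT and 6380 to 8492 CPM in AS, and were not fitted as a covariate. In the brighttdT cells AS over WT was 0.71 (standard error 0.57, 95% interval -0.54 to 1.97, adjusted p = 0.498, edgeR), 1.78 without WT-brighttdT replicate 3 and 0.27 without AS-brighttdT replicate 1. It turned to -0.044 with the proximal tubule and -0.22 with the leukocyte covariate (adjusted p = 0.995 and 0.917, edgeR).

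Srebf2 encodes SREBP-2, the main activator of cholesterol synthesis and uptake genes. It lies on the plus strand at chr15:82147181-82205379 of GRCm38, and an intron of it holds the microRNA gene Mir33, whose product is known to repress Abca1 and which is in neither table. The 250 bases before its RefSeq start (chr15:82147019-82147268, plus strand, GRCm38.p6) held 1 NF-Y box and 4 Sp1 boxes, in capitals. They are shown with those of Insig1 (chr5:28071162-28071411, plus strand), which held 1 NF-Y box, 3 Sp1 boxes and 1 receptor hexamer, because both genes are known SREBP targets and yet differed in their pattern below.
Srebf2: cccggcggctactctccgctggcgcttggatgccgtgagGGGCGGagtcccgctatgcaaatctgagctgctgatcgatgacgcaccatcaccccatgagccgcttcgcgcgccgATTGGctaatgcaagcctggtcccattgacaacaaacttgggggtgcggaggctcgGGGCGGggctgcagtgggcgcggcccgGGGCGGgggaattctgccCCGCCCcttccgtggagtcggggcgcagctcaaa
Insig1: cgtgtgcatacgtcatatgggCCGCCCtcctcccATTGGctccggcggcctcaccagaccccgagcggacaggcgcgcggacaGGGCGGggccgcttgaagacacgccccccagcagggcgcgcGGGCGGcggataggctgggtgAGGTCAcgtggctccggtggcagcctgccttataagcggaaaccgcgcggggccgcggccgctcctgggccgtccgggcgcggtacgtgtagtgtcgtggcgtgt
The capitals mark the same 4 motifs as in the Hmgcs1 promoter, and TCACNCCAC is not among the letters of these windows. Only exact letters were searched, so a sterol element that differs from them by a base would be missed, and its absence is not shown.

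WT-dimtdT libraries had 374, 433 and 410 CPM of Srebf2 and AS-dimtdT libraries 457, 468 and 444 CPM. The brighttdT libraries had 252, 200 and 301 CPM in WT and 203, 191 and 311 CPM in AS. Every brighttdT library lay below every dimtdT library, the AS-dimtdT libraries were all above the WT-dimtdT libraries, and replicate 3 was the highest brighttdT library in both genotypes. From AS-dimtdT to AS-brighttdT Srebf2 fell 1.92-fold (log2 fold change -0.94, standard error 0.20, adjusted p = 0.00307, edgeR), and it passed in 14 of 14 alternatives. In WT the log2 fold change was -0.60 (standard error 0.24, adjusted p = 0.0935, edgeR), and it passed in 1 of 14 alternatives. AS over WT was 0.16 in the dimtdT cells (standard error 0.15, 95% interval -0.18 to 0.50, adjusted p = 0.545, edgeR) and -0.16 in the brighttdT cells (standard error 0.25, 95% interval -0.70 to 0.39, adjusted p = 0.751, edgeR). With a library left out these were 0.099 to 0.19, and -0.42 (without AS-brighttdT replicate 3) to -0.023 (without AS-brighttdT replicate 2).

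Insig1 encodes a membrane protein that holds SREBP proteins in the endoplasmic reticulum when sterols are abundant. It lies on the plus strand at chr5:28071363-28078662 of GRCm38, free of overlapping genes. It had 48.7, 55.6 and 62.2 CPM in WT-dimtdT, 64.4, 86.8 and 100.2 CPM in AS-dimtdT, 49.0, 57.9 and 45.7 CPM in WT-brighttdT and 73.0, 85.9 and 71.2 CPM in AS-brighttdT. All AS libraries lay above all WT libraries, while the subpopulations of a genotype overlapped. AS over WT was 0.58 in the dimtdT cells (standard error 0.23, 95% interval 0.05 to 1.12, adjusted p = 0.158, edgeR) and 0.54 in the brighttdT cells (standard error 0.21, 95% interval 0.07 to 1.01, adjusted p = 0.177, edgeR), and passed in 0 of 16 alternatives in each. For brighttdT over dimtdT the 95% interval ran from -0.63 to 0.55 in WT and from -0.56 to 0.35 in AS.

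Nr1h2 encodes LXR-beta, the LXR found in most tissues, and lies on the minus strand at chr7:44549616-44553951 of GRCm38. It had 11.7, 11.7 and 19.99 CPM in WT-dimtdT and 14.6, 24.2 and 20.1 CPM in AS-dimtdT. WT-brighttdT libraries had 17.998, 25.4 and 16.2 CPM and AS-brighttdT libraries 42.2, 33.8 and 38.3 CPM. The AS-brighttdT libraries stood above all others, and the other 3 groups overlapped. From AS-dimtdT to AS-brighttdT Nr1h2 rose 1.97-fold (log2 fold change 0.98, standard error 0.24, adjusted p = 0.00568, edgeR), in 14 of 14 alternatives. In WT it was 0.54 (standard error 0.39, 95% interval -0.35 to 1.43, adjusted p = 0.349, edgeR). For AS over WT it was 0.88 in the brighttdT cells (standard error 0.26, 95% interval 0.31 to 1.46, adjusted p = 0.105, edgeR) and 0.43 in the dimtdT cells (standard error 0.36, 95% interval -0.40 to 1.25, adjusted p = 0.502, edgeR). With the proximal tubule or leukocyte covariate it was 0.65 or 1.27 in the brighttdT and 0.69 or 0.11 in the dimtdT cells, and did not pass. With a library left out it was 0.73 to 1.09 in the brighttdT cells and 0.20 (without AS-dimtdT replicate 2) to 0.73 (without WT-dimtdT replicate 3) in the dimtdT cells.

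Abca1 encodes the transporter that passes cholesterol to lipid-poor apolipoprotein A-I, and Abcg1 the one that passes it to high-density lipoprotein. Abca1 lies on the minus strand at chr4:53030787-53159895 of GRCm38, free of overlapping genes, and Abcg1 on the plus strand at chr17:31057675-31117988. The promoter of Abca1 (chr4:53159896-53160145, minus strand, GRCm38.p6) is shown because Abca1 was the gene that passed in both genotypes. It held 2 Sp1 boxes, in capitals, and no exact match to the letters of the other 3 motifs. A receptor or sterol site whose letters differ from these would not be found by this search, so its absence is not shown.
Abca1: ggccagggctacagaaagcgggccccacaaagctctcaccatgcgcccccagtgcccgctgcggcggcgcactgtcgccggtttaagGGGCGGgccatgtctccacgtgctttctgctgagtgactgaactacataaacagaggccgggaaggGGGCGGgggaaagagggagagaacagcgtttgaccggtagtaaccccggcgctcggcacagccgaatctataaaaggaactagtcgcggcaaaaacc

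Abca1 had 106, 74.3 and 110.4 CPM in WT-dimtdT and 21.8, 34.8 and 37.1 CPM in WT-brighttdT. In AS it had 105, 67.9 and 66.2 CPM in dimtdT and 26.8, 29.7 and 33.4 CPM in brighttdT libraries. The lowest dimtdT library lay above the highest brighttdT library, and WT and AS overlapped in both subpopulations. Abca1 fell 2.91-fold from WT-dimtdT to WT-brighttdT (log2 fold change -1.54, standard error 0.31, adjusted p = 0.00577, edgeR), and 2.61-fold from AS-dimtdT to AS-brighttdT (log2 fold change -1.39, standard error 0.23, adjusted p = 0.000548, edgeR). It passed in 14 of 14 alternatives in each genotype, and each library left out in turn gave -1.69 to -1.34 in WT and -1.53 to -1.13 in AS. The dimtdT libraries, where Abca1 was high, were those with 7216 CPM or more of leukocyte markers, and the part of these cells in the result was not tested. AS over WT was -0.29 in the dimtdT cells (standard error 0.26, 95% interval -0.89 to 0.31, adjusted p = 0.531, edgeR) and -0.11 in the brighttdT cells (standard error 0.27, 95% interval -0.70 to 0.47, adjusted p = 0.839, edgeR). The value in the dimtdT cells was -0.57 without AS-dimtdT replicate 1 and -0.17 without AS-dimtdT replicate 3.

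Abcg1 had 97.2, 156 and 134 CPM in WT-dimtdT and 181, 149 and 210.4 CPM in AS-dimtdT. In the brighttdT cells it had 55.5, 85.2 and 93.1 CPM in WT and 124, 115 and 147 CPM in AS. AS lay above WT without overlap in the brighttdT cells alone, and replicate 1 was the lowest WT library in both subpopulations. AS over WT was 0.67 in the brighttdT cells (standard error 0.23, 95% interval 0.15 to 1.19, adjusted p = 0.146, edgeR) and 0.47 in the dimtdT cells (standard error 0.23, 95% interval -0.06 to 0.9997, adjusted p = 0.240, edgeR). The latter turned to -0.21 with the proximal tubule covariate (adjusted p = 0.993, edgeR). BrighttdT over dimtdT was -0.64 in WT (standard error 0.30, adjusted p = 0.146, edgeR) and -0.46 in AS (standard error 0.18, adjusted p = 0.0557, edgeR). The AS value passed without AS-dimtdT replicate 2 (adjusted p = 0.0341, edgeR) and without AS-brighttdT replicate 3 (adjusted p = 0.0424, edgeR).

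Whether the effect of genotype differed between the subpopulations was tested as an interaction in all 12 libraries, and 0 of 8 genes passed, at an adjusted p or at an unadjusted p under 0.05, where 3.82% and 18.6% of all genes did. DESeq2 called 0 of 8 as well. The estimates ran from -0.71 for Srebf1 (95% interval -2.48 to 1.06) to 0.50 for Nr1h2 (95% interval -0.42 to 1.43; 0.20 without WT-dimtdT replicate 3), where the median over all genes was 0.14. With library sizes alone as the scaling that median was -0.03. For Srebf2, Srebf1 and Nr1h2, which passed in AS and not in WT, a difference between the genotypes was thus not shown.

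Other genes of the pathway were taken as 5 lists, fixed by name. Among 18 further cholesterol synthesis enzymes, 0 rose and 1 fell from WT-dimtdT to WT-brighttdT, and their log2 fold changes had a median of -0.62. In AS 2 rose and 5 fell of 17, with a median of -0.14, where Fdps was left out because it passed the filter on low counts through the AS-dimtdT libraries alone. Of all genes 13.8% rose and 11.5% fell in WT, and 28.6% rose and 26.5% fell in AS. Cyp51, the lanosterol demethylase, fell in both, by 1.76 in WT (standard error 0.35, adjusted p = 0.00594, edgeR) and by 1.56 in AS (standard error 0.23, adjusted p = 0.000232, edgeR) on the log2 scale. The mevalonate pathway enzymes Mvd (log2 fold change -1.98, standard error 0.40, adjusted p = 0.00181, edgeR), and Pmvk (log2 fold change -1.58, standard error 0.40, adjusted p = 0.00699, edgeR), fell in AS. Fdps, which makes farnesyl diphosphate, had 26, 13 and 23 counts in the AS-dimtdT and 6, 8 and 2 counts in the AS-brighttdT libraries.

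Of 5 genes around SREBP processing, all of them tested, 0 rose and 0 fell in WT, and 2 rose and 0 fell in AS. Over all genes 13.8% rose and 11.5% fell in WT, and 28.6% rose and 26.5% fell in AS. In WT 1 of the 5 had an unadjusted p under 0.05, which 37.4% of all genes reached. This was the sterol carrier gene Stard4, which is named after its value was seen (log2 fold change 0.74, standard error 0.29, adjusted p = 0.0961, edgeR). Insig2, a relative of Insig1, rose 3.05-fold in AS (adjusted p = 0.00112, edgeR), and Mbtps1, the site-1 protease that cuts SREBP proteins, rose 1.75-fold (adjusted p = 0.0107, edgeR). Without AS-dimtdT replicate 3 or AS-brighttdT replicate 3 the adjusted p of Mbtps1 was 0.0503 or 0.0581 (edgeR).

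Among the lipogenic targets of SREBP-1, 0 of 8 tested rose and 1 fell in WT, and 1 of 7 rose and 2 fell in AS. The stearoyl-CoA desaturase gene Scd1 fell 5.71-fold in WT (adjusted p = 0.000263, edgeR) and 3.94-fold in AS (adjusted p = 1.59e-05, edgeR). Fasn, the fatty acid synthase, fell 2.16-fold in AS (adjusted p = 0.00110, edgeR), and Scd2, another desaturase, rose 2.13-fold (adjusted p = 0.00149, edgeR).

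Of 9 LXR partners and targets that were tested, 1 rose and 1 fell in WT, and 2 rose and 4 fell in AS. Among all genes 13.8% rose and 11.5% fell in WT, and 28.6% rose and 26.5% fell in AS. Apoe, an apolipoprotein made abundantly by macrophages, went from 68.3 ± 3.91 CPM in WT-dimtdT to 9.91 ± 3.698 CPM in WT-brighttdT (SD, n = 3 each) (log2 fold change -2.69, standard error 0.35, adjusted p = 0.000562, edgeR). In AS it went from 139 ± 28.7 CPM to 17.1 ± 7.60 CPM (SD, n = 3 each) (log2 fold change -2.99, standard error 0.31, adjusted p = 2.27e-05, edgeR). Mylip, an LXR target that encodes a ubiquitin ligase, rose 2.51-fold in WT (adjusted p = 0.0150, edgeR) and 4.28-fold in AS (adjusted p = 4.76e-06, edgeR). The WT call of Mylip was lost without WT-dimtdT replicate 3 (adjusted p = 0.0513, edgeR) and without WT-brighttdT replicate 2 (adjusted p = 0.0559, edgeR). Rxra, the partner of LXR on DNA, rose 2.61-fold in AS (adjusted p = 0.000311, edgeR), and Ncoa1, a coactivator, fell 2.62-fold (adjusted p = 0.000159, edgeR). Rxrg, Abcg5 and Abcg8 were in neither table.

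The list of sterol ester, oxysterol and transport genes held the largest changes among these 5 lists. Of its 8 genes, 2 rose and 3 fell in WT, and 3 rose and 3 fell in AS. Ch25h, which makes 25-hydroxycholesterol, went from 3.32 ± 0.928 CPM to 67.9 ± 39.3 CPM (SD, n = 3 each) in WT (log2 fold change 4.45, standard error 0.53, adjusted p = 0.000339, edgeR), and from 2.88 ± 3.34 CPM to 168 ± 78.8 CPM (SD, n = 3 each) in AS (log2 fold change 5.93, standard error 0.63, adjusted p = 2.65e-05, edgeR). With a library left out the AS value was 5.42 to 7.46, the highest without AS-dimtdT replicate 2. Soat1, which esterifies cholesterol for storage, fell 10.5-fold in WT (adjusted p = 0.000925, edgeR) and 8.03-fold in AS (adjusted p = 7.38e-07, edgeR), and its log2 fold change in WT, -3.39, was -2.78 without WT-dimtdT replicate 3. Cyp27a1, the sterol 27-hydroxylase, fell 7.79-fold in WT (adjusted p = 0.00240, edgeR) and 13.9-fold in AS (adjusted p = 9.72e-07, edgeR), and its log2 fold change in WT, -2.96, was -3.56 without WT-brighttdT replicate 1. Npc2, which carries cholesterol out of lysosomes, fell 2.78-fold in WT (adjusted p = 0.00267, edgeR) and 4.25-fold in AS (adjusted p = 2.36e-05, edgeR). Leukocyte and macrophage markers were low in the brighttdT libraries as well, and their part in these results was not tested.

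**Figure D4:**
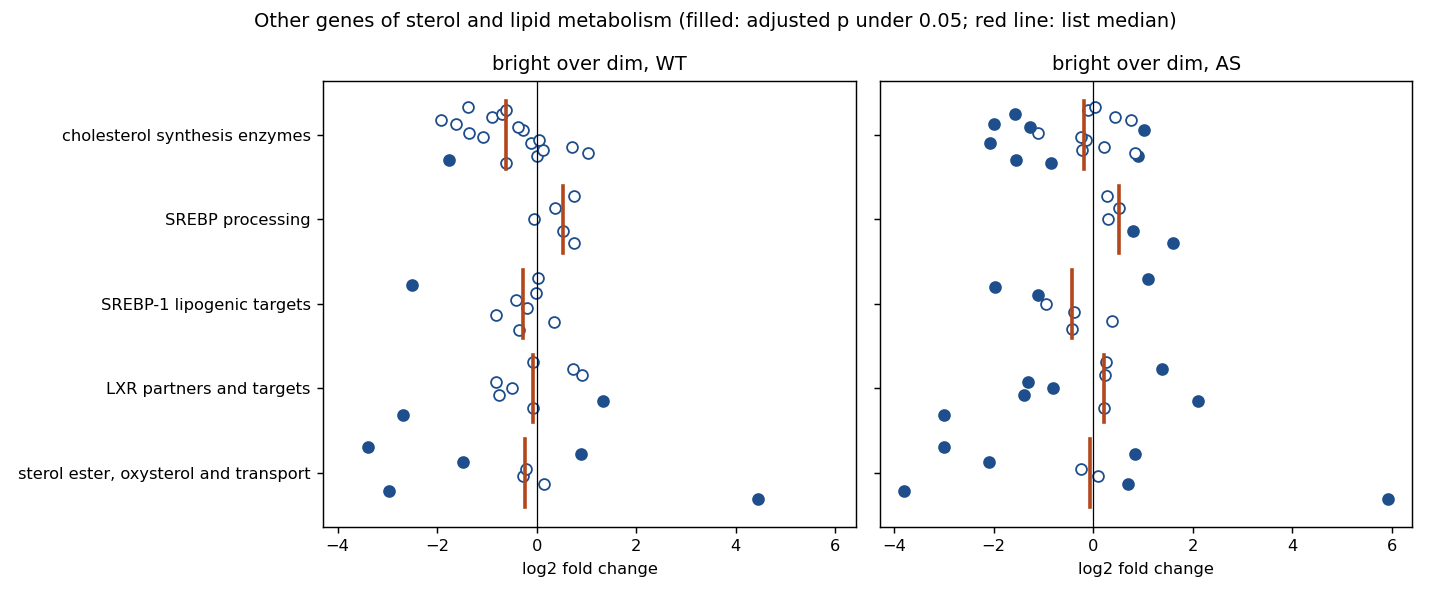
Log2 fold change of brighttdT over dimtdT (x axis) for the genes of 5 lists, in WT on the left and AS on the right, where each point is a gene, filled points have an adjusted p under 0.05 and the red line is the list median. Fdps is among the points in AS. In AS 4 of the 5 lists, all but that of SREBP processing, have filled points on both sides of 0, and the point farthest to the right is Ch25h, at 4.45 in WT and 5.93 in AS.

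Between AS and WT, 1 of the 47 genes of these 5 lists that were tested passed in the dimtdT cells, where 8.63% of all genes passed, and 0 of 47 in the brighttdT cells, where 0.452% did. At an unadjusted p under 0.05 there were 10 of 47 and 6 of 47, against 26.3% and 21.8% of all genes (edgeR). The gene that passed was Apoe, which rose from 68.3 ± 3.91 CPM in WT-dimtdT to 139 ± 28.7 CPM in AS-dimtdT (SD, n = 3 each) (log2 fold change 1.01, standard error 0.22, adjusted p = 0.0317, edgeR). The summed macrophage markers were higher in every AS-dimtdT than in any WT-dimtdT library, and were not fitted as a covariate. With the leukocyte covariate the log2 fold change of Apoe was 1.19 (standard error 0.35) and did not pass (adjusted p = 0.208, edgeR), in a fit where 0 of all genes passed and 2275 had an unadjusted p under 0.05. It was 0.998 with the replicate block, which pairs no animals here (adjusted p = 0.0725, edgeR). The call was also lost without WT-dimtdT replicate 1 or 2 (adjusted p = 0.0520 or 0.0701, edgeR) and without AS-dimtdT replicate 1 or 3 (adjusted p = 0.151 or 0.134, edgeR), and with the proximal tubule covariate the log2 fold change was 0.52 (adjusted p = 0.944, edgeR). The enzymes of cholesterol synthesis had a median log2 fold change of -0.33 in the dimtdT cells, where 10 of 18 were lower in AS, and of 0.10 in the brighttdT cells, where 8 of 17 tested were lower.

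The genes whose log2 CPM followed each of the 8 most closely over the 12 libraries were found among 12645 genes. These were Cdc25b for Abca1 (Pearson's r = 0.968), Bcl3 for Srebf2 (r = 0.966), Smndc1 for Abcg1 (r = 0.958), Ankrd27 for Nr1h2 (r = 0.956), Ankrd13c for Hmgcs1 (r = 0.954), Cirbp for Sqle (r = 0.942), Man2b2 for Srebf1 (r = 0.930) and Zfp568 for Insig1 (r = 0.904). The libraries fall into dimtdT and brighttdT, and a pair of libraries shares each mouse, so that these values are a description of 12 libraries only.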

How the data were processed

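Poly-A RNA of cells sorted as GEC was sequenced from stranded libraries. The authors aligned the reads to GRCm38.p5 (STAR 2.6.0c, genes of Gencode M16) and deposited raw counts per gene, 1 table per subpopulation. The strand counted is not given in the sources used here, so genes that overlap others are uncertain. In AS over WT the labels name separate mice, and p-values measure the spread between mice. The main tests of brighttdT over dimtdT and of the interaction treated both libraries of a mouse as independent. Only the block for the mouse, an alternative, used the pairs. The deposited RPKM, log2 fold changes, logCPM, likelihood ratio scores, p-values and FDR were not used, and the lengths behind the RPKM exceed the gene itself for Nr1h2.

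Counts were tested by the quasi-likelihood test of edgeR 4.0.16 (R 4.3.3), with TMM scaling and filterByExpr, with library sizes over the genes of a table, without spike-ins (at most 0.282% of counts). AS over WT used the 6 libraries of a table. BrighttdT over dimtdT and the interaction used the 15768 genes in both. CPM used a single TMM normalization of all 12 libraries. CPM per kilobase used the exons of Gencode M21. Standard errors are the log2 fold change over the root of F, and 95% intervals use the fit's degrees of freedom. The fits were tested on simulated counts. Where these were drawn with gene-specific dispersions, more calls were false than the threshold allows, so adjusted p-values close to 0.05 may be too small. Replicates were no duplicates (chi-square per degree of freedom at least 33.3 over 12 pairs).

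The dimtdT and brighttdT libraries share the number of their mouse in the labels, and the deviations of such pairs from their group means correlated at 0.0796 to 0.385, against -0.286 to 0.189 (mean -0.102) between different mice of a genotype, so that the ranges overlap. The pairing rests on the labels. Alternatives were RLE, DESeq2 1.42.0, the likelihood ratio test, every gene with a count, a replicate block, a covariate of proximal tubule or leukocyte markers, a fit of all 12 libraries and each library left out. Library sizes alone and edgeR's version 3 fit were added after seeing the data.

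The 8 genes, the lists and the markers were chosen with earlier results of these data known. From the lists, at most 4 genes per list and comparison with the largest change past an adjusted p of 0.05 are named, and the genes nearest each of the 8 by correlation among those with a mean logCPM above 1. The macrophage marker Itgam was left out, as its symbol is split over 2 identifiers. Promoter sequences are from RefSeq (GRCm38.p6), which matched 6 of the 8 genes. Some listed genes are not reported here.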

Additional observations from a re-analysis of the deposited data

How the results depend on the processing

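The number of the 8 genes called for AS over WT was 0 in the main test. In the dimtdT cells DESeq2 and the likelihood ratio test each called 2 and the fit of all 12 libraries 1, where 15.2%, 13.3% and 14.2% of all genes passed, and in the brighttdT cells DESeq2 called 1. For brighttdT over dimtdT in WT the main test called 1, RLE 2, DESeq2 4, the likelihood ratio test 3, the replicate block of the mouse 3 and the fit of all 12 libraries 6, where 25.3%, 25.2%, 29.2%, 27.2%, 30.1% and 34.7% of all genes passed, and leaving out 1 library gave 1 to 2, where 17.3% to 23.3% of all genes passed. In AS it called 4, where 55.1% of all genes passed, and leaving out 1 library gave 3 to 6, where 45.6% to 52.2% did. The interaction gave 0 in each of 19 alternatives. The replicate block changed no other call of the 8 genes than those of Hmgcs1 and Sqle.

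Some estimates that did not pass turned in direction. Sqle for AS over WT in the dimtdT cells was 0.56 with the proximal tubule covariate, and -0.38 to 0.022 with a library left out. Abcg1 there was -0.21 with that covariate. Srebf1 in the brighttdT cells was -0.044 with the proximal tubule and -0.22 with the leukocyte covariate. With a library left out, Abca1 in the brighttdT cells was -0.30 to 0.0035 and Sqle -0.014 to 0.34. Insig1 for brighttdT over dimtdT was 0.018 in WT with library sizes alone, and -0.14 to 0.067 in WT and -0.26 to 0.014 in AS with a library left out. The interaction of Insig1 was 0.016 with the replicate block, and with a library left out it was -0.29 to 0.15, that of Abcg1 -0.076 to 0.41, that of Abca1 -0.11 to 0.36 and that of Srebf1 -1.25 to 0.38. Those that kept their direction were 0.0066 to 0.599 for Hmgcs1, 0.14 to 0.5999 for Sqle, -0.55 to -0.11 for Srebf2 and 0.20 to 0.68 for Nr1h2. The causes were not tested.

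Over all genes, 1263 passed for AS over WT in the dimtdT cells, against 582 with the version 3 fit, 2213 with DESeq2, 1946 with the likelihood ratio test, 285 with the replicate block, 1 and 0 with the proximal tubule and leukocyte covariates, 2143 with all 12 libraries, and 0 to 1825 with a library left out (0 without AS-dimtdT replicate 1, 1 without AS-dimtdT replicate 3). In the brighttdT cells 65 passed, against 0 with the version 3 fit, 39 with every gene with a count, 1117 with DESeq2, 827 with the likelihood ratio test, 0 with the replicate block, 0 and 12 with the covariates, 140 with all 12 libraries, and 0 to 281 with a library left out. The interaction gave 576, against 1186 with DESeq2, 1126 with the likelihood ratio test, 865 with the block and 254 to 890 with a library left out. In AS over WT the replicate numbers of WT and AS are different mice, so the block there pairs no animals. With 3 libraries per group and these standard errors, changes within the 95% intervals given for each gene could not be resolved.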
